A study of Mus musculus with 8 samples.

Results

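Semaphorins, plexins and neuropilins were taken from the atrioventricular canal arrays by gene symbol: every probe set with a single symbol of the form Sema (classes 3 to 7), Plxn (classes A to D) or Nrp (1 and 2). This gave 78 of 45101 probe sets, for 31 of 18194 named genes: 20 semaphorins, 9 plexins and 2 neuropilins. Each gene is described on its brightest probe set, the one with the highest mean over all arrays, and its other tested probe sets are given beside it. The arrays came from microdissected atrioventricular canals of mice of a mixed C57BL6/129 background, with 10 canals in each pool and 50 ng of total RNA amplified per array. The 4 control pools were Gata4flox/flox, and the 4 mutant pools carried the T2Cre transgene on the same Gata4flox/flox alleles. T2Cre is a Cre recombinase driven by the Tie2 (Tek) promoter, which is active in endothelium, so that Gata4 was to be lost from endothelium and from the cushion mesenchyme it forms, while the muscle of the canal was not targeted. Both groups had floxed alleles, and no label gives Cre to the controls. Effects of Cre itself and of the deletion cannot be told apart. No age is given in the labels. Each array is a pool, so spread between arrays is spread between pools, and in whole canals fewer cells of a type and less RNA per cell cannot be told apart.

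Semaphorins are a family of secreted and membrane-bound signals that share the sema domain and were first studied as guidance cues of growing axons. Plexins are their main receptors, with a cytoplasmic GTPase-activating domain that acts on small GTPases of the Ras and Rap group, and neuropilins are co-receptors with short cytoplasmic tails that bind secreted class 3 semaphorins and vascular endothelial growth factor. In the heart the family is known for guiding neural crest cells into the outflow tract and for patterning endothelium, and semaphorin 6D with plexin A1 is known to steer the migration of cells in the chick endocardial cushion.

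The arrays were unequal in background. Bacterial control probe sets had a median signal of 158 and 135 on controls 2 and 3, against 4.0 to 39.3 on the other 6 arrays, and the array weights of those 2 controls were the smallest (0.302 and 0.35, against 0.867 to 2.80). An array counted as above background for a probe set where that signal was over the 90th percentile of 27 such controls. On this measure 18 and 22 of the 31 genes were above background on controls 2 and 3, 25 on each of controls 1 and 4, and 22 to 27 on the mutant arrays. Gata4 itself, on its brighter probe set, gave -0.15 (SE 0.11, limma adjusted p = 0.585), which does not check the deletion since the untargeted muscle expresses the gene. Cardiomyocyte markers (12 of 12), cushion mesenchyme markers (10 of 10) and endothelial markers (12 of 12) were above background on at least 2 arrays of each group, against 1 of 8 markers of macrophages and blood and 3 of 8 of foregut and liver.

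**Figure D1:**
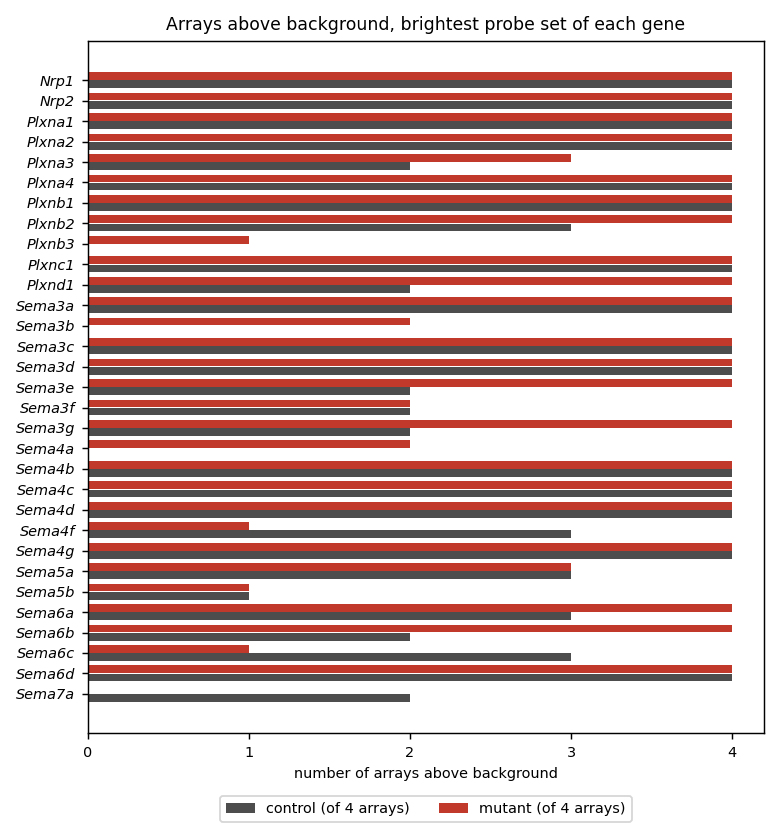
Number of arrays above background for the brightest probe set of each of the 31 genes, with control arrays in grey and mutant arrays in red (4 of each). A total of 15 genes reached the longest bar in both groups, and Plxnb3, Sema3b, Sema4a and Sema5b had short bars or none.

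Of the 31 genes, 15 were above background on all 8 arrays, and 24 were well measured, meaning above background on at least 2 arrays of each group. Plxnb3, Sema3b, Sema4a, Sema4f, Sema5b, Sema6c and Sema7a were not. A filter that dropped the dimmest 40% of probe sets by mean removed Plxnb3, Sema3b, Sema3f, Sema4a, Sema5b and Sema7a, so that 25 genes were tested. The filter ran on the mean over both groups. Values below are log2 of the signal plus 16 after quantile normalization unless the deposited signal is named, and changes are mutant minus control from limma with array weights.

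No semaphorin, plexin or neuropilin gene passed an adjusted p of 0.05. By limma 0 of 25 tested genes were higher and 0 lower, where 0.0414% of all genes on their brightest probe set were higher and 0.0249% lower (0.0663% in all), and 0.0259% and 0.0185% of all probe sets. At an unadjusted p under 0.05, 4 of the 25 had positive changes (Nrp1, Nrp2, Sema3g and Sema4b) and 4 had negative ones (Plxnc1, Sema3a, Sema4c and Sema4f), beside 7.31% and 5.61% of all genes in the same directions. Of the 8, Sema4f was above background on only 1 mutant array. The groups did not overlap for 1 gene with higher mutant values (Plxna4) and 3 with lower ones (Plxnc1, Sema4c and Sema4g), beside 4.97% and 3.19% of all genes. Among the 4 genes without overlap, Plxna4 and Sema4g were not among the 8 with an unadjusted p under 0.05.

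**Figure D2:**
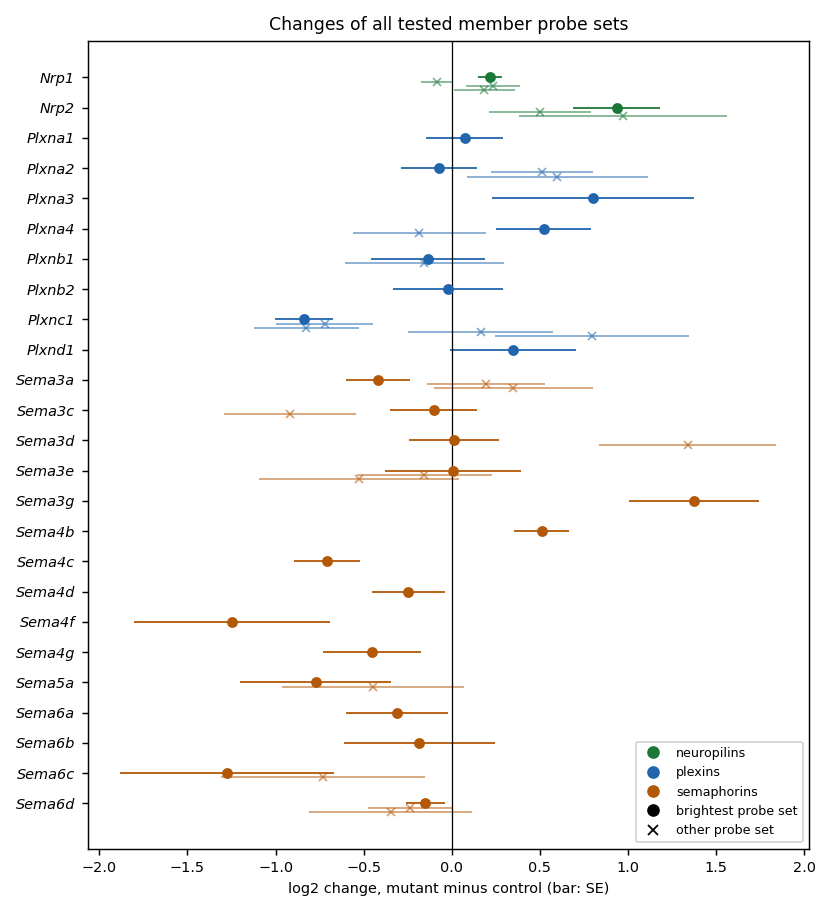
Log2 change, mutant minus control, with its SE, for every tested probe set of the 25 tested genes, with filled circles for the brightest probe set and crosses for the others. Plxnc1 has 3 probe sets between -0.84 and -0.72 and 2 dimmer ones above 0, and the class 4 and class 6 semaphorins lie left of 0 except Sema4b.

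Promoter sequence from RefSeq (GRCm38.p6) was matched for 26 of the 31 genes, with 37 start sites. Plxna1, Plxna4, Sema3b, Sema3f and Sema6a had no entry. The 250 bases before each start are shown for Plxnc1, Sema4c and Sema3a, the well measured genes with negative changes at an unadjusted p under 0.05, because the factor deleted here binds the letters GATA. The search ran on both strands for AGATAA, then with the last base changed for AGATAG, then with the first changed for TGATAA and with both changed for TGATAG, and matches are in capitals.
Plxnc1, chr10:94944846-94945095, minus strand: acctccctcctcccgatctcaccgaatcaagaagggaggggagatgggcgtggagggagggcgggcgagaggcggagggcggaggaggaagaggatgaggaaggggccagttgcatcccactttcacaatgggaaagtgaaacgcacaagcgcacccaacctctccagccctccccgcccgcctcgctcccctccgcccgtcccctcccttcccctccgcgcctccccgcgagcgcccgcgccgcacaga
Sema4c, chr1:36557558-36557807, minus strand: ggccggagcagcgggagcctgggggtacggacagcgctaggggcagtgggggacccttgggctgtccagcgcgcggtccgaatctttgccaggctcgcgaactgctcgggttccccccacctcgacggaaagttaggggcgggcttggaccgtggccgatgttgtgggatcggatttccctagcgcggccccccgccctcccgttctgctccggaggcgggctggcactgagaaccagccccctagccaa
Sema4c, second start, chr1:36558382-36558631, minus strand: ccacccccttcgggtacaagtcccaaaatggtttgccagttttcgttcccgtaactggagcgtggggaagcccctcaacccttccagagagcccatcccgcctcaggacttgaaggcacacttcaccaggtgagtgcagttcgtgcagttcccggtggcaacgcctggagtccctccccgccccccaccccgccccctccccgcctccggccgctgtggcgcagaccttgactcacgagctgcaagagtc
Sema3a, chr5:13396534-13396783, plus strand: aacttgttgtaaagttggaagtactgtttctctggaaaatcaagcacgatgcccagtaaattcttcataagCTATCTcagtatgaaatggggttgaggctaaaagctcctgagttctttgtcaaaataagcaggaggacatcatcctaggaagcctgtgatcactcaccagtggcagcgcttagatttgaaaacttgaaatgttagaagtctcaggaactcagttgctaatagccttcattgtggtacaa

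The window of Plxnc1 held no match, and neither did those of Sema4c. Sema3a held 1, CTATCT, which reads AGATAG on the other strand and begins 179 bases before the start. Over the family 5 of 37 windows held a match (13.5%), those of Plxna2, Plxnb3, Sema3a, Sema4d and Sema6d, beside 26.5% of 32851 windows of all genes. The family's windows were richer in G and C, with a median of 64% beside 52.4% over all genes, and the 4 printed span most of that range, from 40.8% in Sema3a to 69.6% in Sema4c. These letters describe the windows and do not show binding.

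Plxnc1 had the smallest p of the family. Plexin C1 is the only class C plexin and is known as the receptor of the membrane-anchored semaphorin 7A. Its brightest probe set, 1423213_at, had deposited signals of 883, 859, 1027 and 866 in the 4 controls in replicate order, and the 4 mutants read 402, 549.5, 505 and 446. All 4 mutant pools lay below all 4 controls, and the raised background of controls 2 and 3 did not set them apart from controls 1 and 4. On the normalized scale the control values were 9.87, 9.69, 10.05 and 9.74 and the mutant values 8.79, 9.38, 9.01 and 8.94, or 9.84 ± 0.16 and 9.03 ± 0.25 (SD, n = 4 each). The log2 change was -0.84 (SE 0.17, limma adjusted p = 0.0739), 0.559 times the control level. It was -0.89 (SE 0.20, adjusted p = 0.317) without controls 2 and 3, and its adjusted p ran from 0.0320 to 0.259 when single arrays were left out. With the authors' own scaling it passed, at -0.91 (SE 0.16, adjusted p = 0.0191).

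A second Plxnc1 probe set, 1423214_at, read 8.36, 8.80, 8.89 and 8.19 in the controls and 7.75, 7.07, 8.02 and 7.22 in the mutants, again without overlap (-0.82, SE 0.30, adjusted p = 0.307). Another, 1450905_at, read 8.57, 8.30, 8.82 and 8.35 against 7.43, 8.4, 8.02 and 7.48, where mutant 2 lay among the controls (-0.72, SE 0.27, adjusted p = 0.330). The remaining 3 were dim: 1450906_at was above background on 2 control arrays and gave 0.16 (SE 0.41), 1443434_s_at was above background on 1 and gave 0.80 (SE 0.55), and 1443433_at was above background on none and not tested. The 3 probe sets above background on all 8 arrays therefore had negative changes of like size. Sema7a, which encodes the known ligand, was above background on 2 control arrays and 0 mutant arrays. Its values were 6.98, 5.16, 7.16 and 6.63 in the controls and 4.83, 4.93, 5.85 and 6.11 in the mutants, near background and with control 2 among the mutants. The other Sema7a probe set, 1459903_at, dimmer and also not tested, went the other way. Its mean was 5.32 in the controls and 6.33 in the mutants, with overlapping groups, and it was above background on 0 control and 2 mutant arrays. The Sema7a probe sets therefore did not share a direction.

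**Figure D3:**
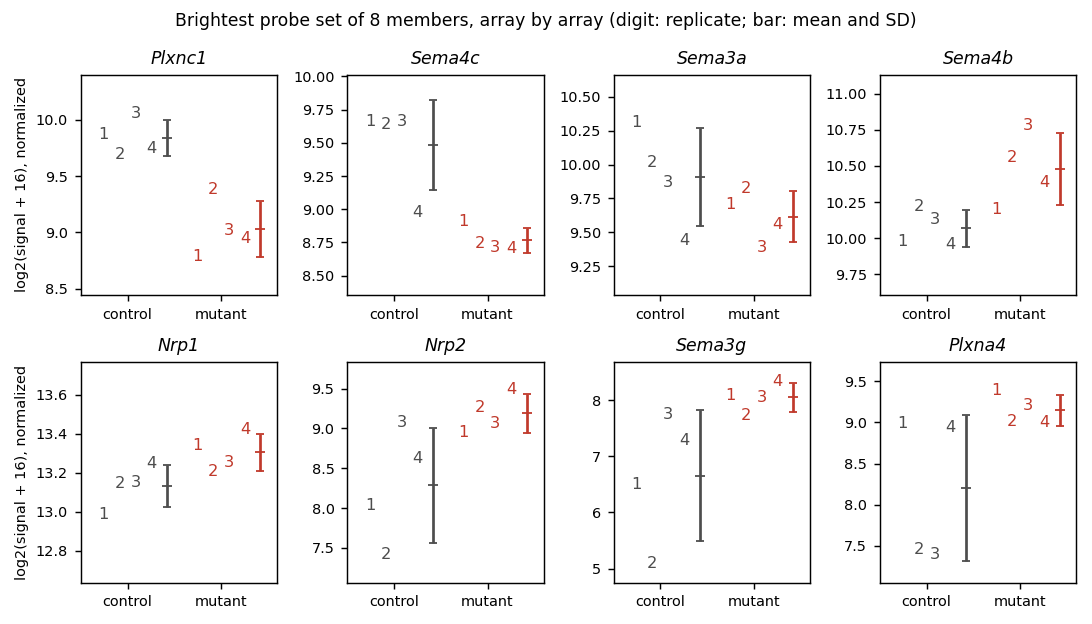
Normalized log2(signal + 16) of the brightest probe set of 8 genes, with a digit for each replicate (grey control, red mutant) and the mean and SD of 4 arrays beside it. The genes are the well measured ones with a limma unadjusted p under 0.05, and Plxna4. Each panel has its own axis. Plxnc1 and Sema4c separate the groups with all mutants lower, while in Plxna4 controls 2 and 3 lie apart from controls 1 and 4, which sit beside the mutants.

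Both neuropilins had positive changes. Neuropilin 1, a co-receptor for semaphorin 3A and for vascular endothelial growth factor, read 12.98, 13.14, 13.15 and 13.25 in the controls and 13.34, 13.20, 13.25 and 13.42 in the mutants on its brightest probe set. Mutants 2 and 3 lay at the level of control 4, so the groups touched. The change was 0.22 (SE 0.07, limma adjusted p = 0.253), or 1.16-fold. A second bright Nrp1 probe set gave -0.09 (SE 0.09) and 2 dimmer ones gave 0.23 (SE 0.15) and 0.18 (SE 0.17), so its probe sets did not share a direction.

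Nrp2 encodes neuropilin 2, a co-receptor for semaphorins 3F and 3G and for lymphatic growth factors. It read 8.03, 7.41, 9.08 and 8.62 in the controls and 8.94, 9.27, 9.06 and 9.49 in the mutants. Control 3 lay among the mutants and the other 3 controls lay below them. The change of 0.94 (SE 0.25, adjusted p = 0.211), or 1.91-fold, was 1.0 (SE 0.25, adjusted p = 0.459) without controls 2 and 3. Without control 3 alone it was 1.15 (SE 0.23) and passed, with an adjusted p of 0.0372. Its next probe sets gave 0.50 (SE 0.29), with control 2 at 7.07 the lowest array, and 0.97 (SE 0.59) on a probe set above background on 0 control arrays. All 3 tested Nrp2 probe sets thus had positive changes, none of which passed.

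Plexins of class A are the signalling partners of neuropilins for class 3 semaphorins and the direct receptors of class 6. Plxna4, on its brightest probe set, read 8.99, 7.46, 7.40 and 8.94 in the controls and 9.39, 9.01, 9.20 and 9.0 in the mutants. The groups did not overlap, yet controls 1 and 4 lay within 0.1 of the lowest mutants and only controls 2 and 3 were clearly lower. The change of 0.52 (SE 0.27, adjusted p = 0.430) became 0.19 (SE 0.21, adjusted p = 0.912) without controls 2 and 3, and the other Plxna4 probe set gave -0.19 (SE 0.38). Without control 1 or control 4, where controls 2 and 3 weigh more, Plxna4 passed, at 1.43 (adjusted p = 0.0197) and 1.29 (adjusted p = 0.0288).

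Plxna1, the plexin of semaphorin 6D in the heart, read 8.58, 8.75, 8.35 and 8.74 in the controls and 8.72, 9.28, 8.49 and 8.69 in the mutants (0.07, SE 0.22, adjusted p = 0.914). Plxna2 read 8.75, 8.62, 8.37 and 8.23 against 8.4, 8.78, 8.4 and 8.44 (-0.07, SE 0.22, adjusted p = 0.909). The arrays of both genes were interleaved. Dimmer Plxna2 probe sets gave 0.51 (SE 0.29) and 0.60 (SE 0.51), the second above background on only 1 control array. Plxna3 was near background, with 5.02, 7.51, 7.68 and 5.82 in the controls and 6.75, 6.94, 7.22 and 5.84 in the mutants. Its controls fell into 2 levels, with controls 2 and 3 high, and its change of 0.80 (SE 0.57, adjusted p = 0.570) reversed under other settings.

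Class B plexins are the receptors of membrane-bound class 4 semaphorins. Plxnb1 read 8.27, 8.48, 8.90 and 6.93 in the controls and 8.07, 7.90, 7.55 and 8.0 in the mutants (-0.13, SE 0.32, adjusted p = 0.888), with control 4 below all mutants and the other controls above them. Its second probe set gave -0.16 (SE 0.45). Plxnb2 read 8.20, 7.08, 7.18 and 7.96 against 7.90, 7.88, 8.20 and 7.48 (-0.02, SE 0.31, adjusted p = 0.984). Plxnd1, the endothelial plexin that binds semaphorin 3E, read 8.03, 5.90, 6.78 and 7.58 against 7.53, 7.62, 7.93 and 8.06 (0.35, SE 0.36, adjusted p = 0.705). For both Plxnb2 and Plxnd1, controls 2 and 3 were the lowest arrays on the normalized scale and controls 1 and 4 lay at the level of the mutants. The deposited signals were ordered otherwise. For Plxnb2 they were 260.5, 269, 271 and 195 in the controls and 206, 152, 245 and 113.5 in the mutants, with controls 2 and 3 highest. For Plxnd1 they were 233, 104, 210 and 136 against 157, 123, 187 and 202. Without controls 2 and 3 the changes were -0.25 (SE 0.33) for Plxnb2 and 0.08 (SE 0.32) for Plxnd1.

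The control arrays differed among themselves in these genes as in others. In 7 of the 24 well measured genes controls 2 and 3 both lay below controls 1 and 4 (Plxna4, Plxnb2, Plxnd1, Sema3e, Sema3f, Sema6a and Sema6b), and in 3 both lay above (Plxna3, Plxnb1 and Sema4b). These were 29.2% and 12.5% of the 24 genes, beside 29.7% and 20.5% of all 12069 genes. The counts hold for the normalized scale. In deposited signal the order of the controls was the other way for Plxnb2 (260.5, 269, 271 and 195) and Sema6a (275, 310, 398 and 223). It was kept for Plxna4 (465, 329, 301.5 and 464). The mean of controls 2 and 3 differed from that of controls 1 and 4 by up to 2.17 in Plxna3 and by -1.54 in Plxna4, but by 0.07 in Plxnc1, 0.06 in Sema3a and -0.08 in Nrp2.

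Among the ligands the class 4 semaphorins, which are membrane-bound, had changes of both signs. Sema4c, whose product is a ligand of plexin B2, had deposited signals of 757.5, 838, 832 and 474 in the 4 controls, and the 4 mutants read 442, 313, 391 and 365. Its normalized values were 9.66, 9.64, 9.66 and 8.97 in the controls and 8.91, 8.74, 8.71 and 8.70 in the mutants, or 9.48 ± 0.34 and 8.77 ± 0.10 (SD, n = 4 each). The groups did not overlap, but control 4 lay only just above mutant 1, while the other 3 controls were close to each other and well above. The change was -0.71 (SE 0.19, adjusted p = 0.212), 0.613 times the control level, and -0.64 (SE 0.23, adjusted p = 0.694) without controls 2 and 3. Without control 4 it was -0.89 (SE 0.22) and passed, with an adjusted p of 0.0283. Sema4c has no other probe set with a single symbol.

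Sema4b read 9.97, 10.22, 10.13 and 9.95 in the controls and 10.20, 10.56, 10.78 and 10.38 in the mutants. Mutant 1 lay beside control 2 and the other 3 mutants above all controls. The change was 0.51 (SE 0.15, adjusted p = 0.245), or 1.42-fold, and 0.60 (SE 0.18) without controls 2 and 3. Sema4d, the ligand of plexin B1, read 9.70, 10.01, 8.53 and 9.71 against 9.39, 9.88, 9.22 and 9.28 (-0.25, SE 0.21, adjusted p = 0.633). Sema4g read 8.14, 7.88, 7.96 and 7.70 against 7.45, 7.10, 7.48 and 7.70, with control 4 and mutant 4 level to the second decimal (-0.46, SE 0.28, adjusted p = 0.4996). In Sema4d control 3 was the lowest array, and the remaining arrays were interleaved.

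Class 3 semaphorins are secreted, and most of them reach plexins through neuropilins. Sema3a, a repellent of sympathetic axons in the heart, read 10.31, 10.01, 9.87 and 9.44 in the controls and 9.70, 9.82, 9.39 and 9.56 in the mutants. Controls 1 to 3 lay above all mutants and control 4 among them. The change was -0.42 (SE 0.18, adjusted p = 0.367), while 2 dimmer Sema3a probe sets gave 0.20 (SE 0.33) and 0.35 (SE 0.45). Sema3c, the class 3 ligand needed for septation of the outflow tract, read 9.52, 9.01, 9.57 and 9.24 against 9.34, 9.58, 9.66 and 8.72 on its brightest probe set (-0.10, SE 0.25, adjusted p = 0.888). The other Sema3c probe set, above background on all 8 arrays, read 8.06, 8.30, 7.57 and 7.39 against 6.42, 6.96, 7.45 and 6.52. Only mutant 3 reached the controls there, and the change was -0.92 (SE 0.37, adjusted p = 0.347), so the 2 probe sets of this gene gave different sizes.

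Sema3g, whose product binds neuropilin 2 and is known from endothelium, read 6.50, 5.10, 7.74 and 7.28 in the controls and 8.08, 7.72, 8.05 and 8.33 in the mutants. Signal over background was found on 2 control arrays and 4 mutant arrays, and control 3 lay at the level of mutant 2. The change of 1.37 (SE 0.37, adjusted p = 0.219), or 2.59-fold, was the largest positive one among the tested brightest probe sets of the family. It was 1.34 (SE 0.35, adjusted p = 0.471) without controls 2 and 3 and 1.59 (adjusted p = 0.0476) without control 3 alone. Its deposited signal, however, was highest on control 3, with 83.0, 63.3, 353 and 102 in the controls and 235, 134, 211 and 262 in the mutants.

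The other class 3 genes gave values near 0 or were not tested. Sema3d read 8.89, 8.62, 8.94 and 8.51 in the controls and 8.32, 8.27, 8.70 and 9.23 in the mutants (0.01, SE 0.26, adjusted p = 0.990). Its second probe set gave 1.34 (SE 0.50, adjusted p = 0.324) and was above background on 1 control and 4 mutant arrays. Sema3e, the ligand of plexin D1, read 7.23, 7.13, 6.06 and 7.64 against 7.09, 6.72, 7.06 and 7.60 (0.01, SE 0.39, adjusted p = 0.996), and its other probe sets gave -0.16 (SE 0.38) and -0.53 (SE 0.57). Sema3f was removed by the filter, with 6.82, 6.61, 4.77 and 6.62 in the controls and 6.20, 7.17, 6.96 and 5.40 in the mutants, 2 arrays of each group being above background. In these 3 genes the arrays of the groups were interleaved.

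Class 5 and class 6 semaphorins are transmembrane proteins, and class 6 members signal to class A plexins. Sema6d, the cushion ligand of plexin A1, read 10.97, 11.01, 10.72 and 11.01 in the controls and 10.84, 10.68, 10.94 and 10.68 in the mutants. Control 3 lay among the mutants and the other 3 controls just above them (-0.15, SE 0.11, adjusted p = 0.592). Its other tested probe sets gave -0.23 (SE 0.24) and -0.35 (SE 0.46). Sema6a read 8.28, 7.33, 8.03 and 8.11 against 7.48, 7.57, 8.14 and 7.63 (-0.31, SE 0.29, adjusted p = 0.673). Sema6b read 7.57, 5.93, 6.74 and 7.02 against 7.59, 7.66, 6.58 and 6.78 (-0.18, SE 0.43, adjusted p = 0.884). Sema5a read 7.50, 8.45, 7.42 and 6.31 against 6.81, 6.62, 6.67 and 5.98 (-0.77, SE 0.43, adjusted p = 0.459), with control 4 low among the mutants, and its second probe set gave -0.45 (SE 0.52).

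Sema4f and Sema6c were tested but were above background on 3 control arrays and 1 mutant array each. Sema4f read 6.94, 8.17, 8.35 and 5.60 in the controls and 5.71, 6.78, 5.56 and 5.14 in the mutants, and passed without control 4 (-2.31, adjusted p = 0.0367) and with median-centred arrays. Its other probe set, dimmer and not tested, went the other way, with a plain difference of 0.94 and all mutants above all controls. That probe set was above background on 0 control and 2 mutant arrays. Sema6c read 7.60, 6.52, 7.50 and 6.86 against 6.36, 5.92, 6.90 and 4.76. On the brightest probe sets of both genes the higher arrays were mostly controls, at or near background. A second Sema6c probe set gave -0.73 (SE 0.58), and an untested one had a plain difference of 0.68. Plxnb3, Sema3b, Sema4a and Sema5b, which were not tested, had values from 4.49 to 7.38 on their brightest probe sets, with overlapping groups.

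Counted by class with all 8 arrays quantile normalized, negative changes outnumbered positive ones among the semaphorins and not among the plexins. Of 15 tested semaphorins 4 had positive and 11 negative changes, with a median of -0.25, beside a median of 0.02 over all 12069 genes, of which 53.2% were positive and 46.8% negative. Without controls 2 and 3 the semaphorin split was 3 and 12 with a median of -0.37. With the authors' scaling it was 2 and 13 with a median of -0.53, where the median of all probe sets was -0.10. Relative to that median, 4 lay above and 11 below. The split was 6 and 9 with a median of -0.049 without control 1, and 5 and 10 with a median of -0.077 without control 4. Without array weights it was 4 and 11 with a median of -0.14. Without the filter on low values 20 semaphorins were tested, and the split was 7 and 13 with a median of -0.11. With a filter on detection it was 3 and 11 with a median of -0.20. Among the negative ones in the main fit, Sema4f and Sema6c were above background on 3 control arrays and 1 mutant array each. With median-centred arrays, in which all probe sets had a median change of 1.13, the split turned to 12 positive and 3 negative, and 4 lay above and 11 below that median. Of the 8 tested plexins 4 were positive and 4 negative (median 0.02). With the authors' scaling 2 were positive and 6 negative (median -0.19), and 4 lay above and 4 below the median of all probe sets. With median-centred arrays 2 plexins lay above and 6 below the median of all probe sets. Both neuropilins were positive under each of these scalings. The semaphorin members differ in brightness and share the same arrays, so their signs are not independent of each other.

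**Figure D4:**
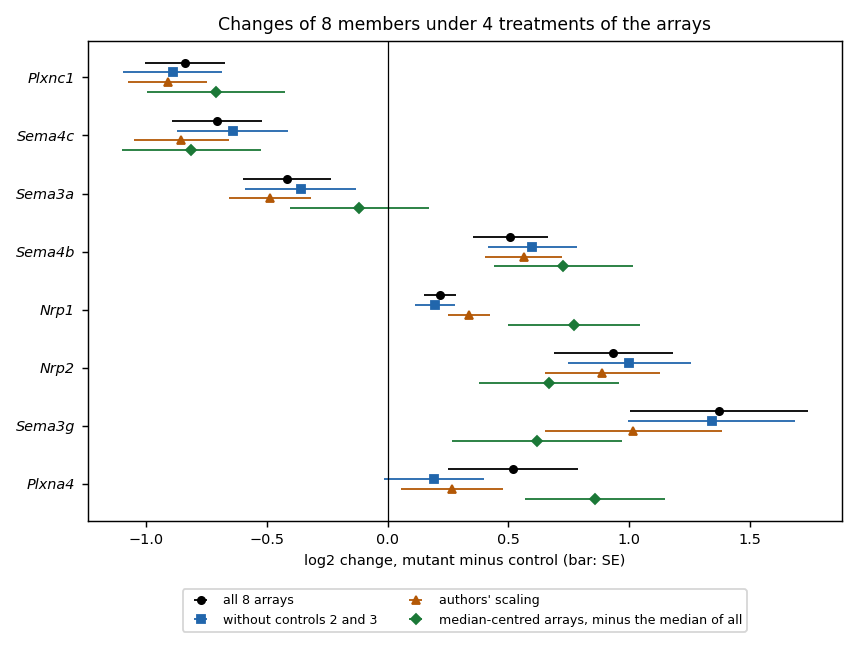
Log2 change with its SE for the brightest probe set of 8 genes under 4 treatments of the arrays: all 8 arrays quantile normalized (black), without controls 2 and 3 (blue), the authors' scaling (orange) and median-centred arrays minus the median change of all probe sets (green). The genes were taken from these same data for a limma unadjusted p under 0.05 or, for Plxna4, for groups without overlap. Each gene keeps its sign under all 4, the last only after that median is subtracted, and Plxna4 moves from 0.52 to 0.19 without controls 2 and 3.

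The 8 genes plotted by setting kept their sign relative to the other probe sets under each scaling. They are the well measured genes with a limma unadjusted p under 0.05, and Plxna4, whose groups did not overlap. Being taken from these same data for such values, they say little about how stable signs are in the family. With median-centred arrays, after subtraction of the overall median, Plxna1, Plxna3, Sema3d, Sema3e, Sema4d and Sema6d turned. In median-centred arrays as such Plxnc1, Sema4c and Sema3a turned positive (0.43, 0.32 and 1.02), since all probe sets shifted by 1.13. After subtracting that shift the values were -0.71 for Plxnc1, -0.81 for Sema4c, -0.12 for Sema3a, 0.73 for Sema4b, 0.77 for Nrp1, 0.67 for Nrp2, 0.62 for Sema3g and 0.86 for Plxna4.

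Summed signals of cushion mesenchyme, epicardial, cardiomyocyte and neural crest markers did not overlap between the groups, while those of the other marker lists did. Of 10 cushion mesenchyme markers 9 had negative changes (median -0.58). The summed normalized signal of the 10 was 38710 to 40120 in the controls and 28270 to 34890 in the mutants, without overlap. All 8 tested of 10 epicardial markers had positive changes (median 0.60), with a summed signal of 5507 to 6870 in the controls and 7935 to 11550 in the mutants. Aldh1a2 was above background on 0 control and 3 mutant arrays, and Msln on 0 and 1. Of 12 endothelial markers 8 had positive and 4 negative changes, with a summed signal of 12160 to 13310 and 10780 to 12200, and Tek, whose promoter drives the Cre, fell (-0.72, SE 0.07, limma adjusted p = 0.000172). Neuronal markers summed to 1286 to 2066 and 1388 to 1456, and none of the 11 measured was above background on all 8 arrays. Neural crest markers summed to 2238 to 2724 and 1065 to 1567, where Erbb3 fell (-1.12, SE 0.17, limma adjusted p = 0.0183), Foxd3 was above background on 0 arrays and Sox10 on 0 control and 2 mutant arrays. Of the 8 neural crest markers with a probe set only 2 were well measured. The 4 tested had 1 positive and 3 negative changes, so these sums do not measure the number of neural crest cells. Cardiomyocyte markers summed to 120800 to 125400 and 128700 to 132900, and 11 of 12 had positive changes. Erythroid markers summed to 36790 to 55060 and 36750 to 45940, macrophage and blood markers to 481.1 to 724 and 570.8 to 812, and foregut and liver markers to 747.6 to 1435 and 420 to 2311. The part of any of these in the changes of the semaphorin genes was not tested.

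Partners and effectors of the pathway were taken from a list of 61 genes, of which 58 had a probe set and 51 were tested. By limma 1 was higher and 0 were lower, beside 0.0414% and 0.0249% of all genes. With a median of -0.01, 24 changes were positive and 27 negative, beside 53.2% and 46.8% of all genes. The groups did not overlap for 3 genes with higher mutant values and 2 with lower ones, beside 4.97% and 3.19% of all genes. The 1 that passed was Itga1, the alpha 1 chain of a collagen receptor that also serves semaphorin 7A. It read 11.66, 11.33, 11.41 and 11.37 in the controls and 12.14, 12.04, 12.01 and 12.11 in the mutants, all mutants above all controls (0.56, SE 0.09, adjusted p = 0.0183). Its second probe set gave 0.73 (SE 0.22, adjusted p = 0.244), also without overlap. The change was 0.57 (adjusted p = 0.143) without controls 2 and 3 and 0.54 (adjusted p = 0.0551) without mutant 1, and passed in neither. Itgb1, its beta 1 partner chain, gave -0.17 (SE 0.15, adjusted p = 0.653), and its 4 other tested probe sets were positive, from 0.10 (SE 0.12) to 0.76 (SE 0.40).

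Ligand and receptors of the growth factor that shares the neuropilins did not pass. Vegfa read 10.23, 10.88, 10.84 and 9.76 in the controls and 10.41, 9.87, 9.72 and 9.85 in the mutants (-0.33, SE 0.20, adjusted p = 0.493), with controls 2 and 3 the highest arrays. Vegfa gave 0.32 (SE 0.39) on its other, dimmer probe set. Its receptor Kdr read 9.85, 9.17, 9.70 and 9.72 against 10.12, 9.86, 10.04 and 9.96, just without overlap (0.28, SE 0.15, adjusted p = 0.428). Flt1 gave 0.10 (SE 0.08), and its dimmer probe sets gave -0.09 (SE 0.38), -0.16 (SE 0.27) and -0.23 (SE 0.50). Of the receptor tyrosine kinases that pair with class B plexins, Erbb2 gave 0.18 (SE 0.19) and Met gave 0.53 (SE 0.33), Met being above background on 2 control arrays.

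Most downstream genes gave changes near 0. The GTPases Rac1 and Rhoa gave -0.0039 (SE 0.10) and -0.09 (SE 0.07), and the collapsin response mediators Dpysl2 and Dpysl3 gave 0.00050 (SE 0.04) and -0.07 (SE 0.05). Cofilin Cfl1 and its kinase Limk1 gave 0.03 (SE 0.03) and 0.11 (SE 0.08), and the GTPase Rras and the Ras inhibitor Rasa1 gave 0.37 (SE 0.26) and -0.05 (SE 0.11). Other small p values belonged to the kinase Pak2 (-0.42, SE 0.12, adjusted p = 0.240, without overlap), Farp2, an exchange factor that acts with class A plexins (-0.88, SE 0.34, adjusted p = 0.332; an untested dimmer probe set, above background on 1 control and 4 mutant arrays, had a plain difference of 1.97), the actin oxidoreductase Mical1 (0.58, SE 0.26), the GTPases Rap1a (-0.28, SE 0.13) and Rras2 (-0.15, SE 0.07), and the protease Furin (-0.14, SE 0.07), which cleaves class 3 semaphorins. None of these passed, and the second Pak2 probe set above background gave 0.07 (SE 0.23). Sh3bp1, a GTPase-activating protein for Rac, completed these with 6.52, 5.23, 6.71 and 7.98 in the controls and 7.80, 7.97, 7.79 and 8.0 in the mutants and was above background on 1 control array.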

How the data were processed

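Gene expression was measured on 8 arrays, 4 control and 4 mutant, each from a pool of canals. The values are linear probe set intensities as the authors deposited them, with MAS5 named in the submitters' processing notes; version, background step and detection calls are not given in the sources used here. The plain mean was 714.971 on every array, per the deposited intensities, and the medians differed by up to 3.76 times. Depth does not apply to arrays, and their number limits the precision.

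Intensities were taken as log2(signal + 16), so changes of dim genes are understated, and quantile normalized, since 2% trimmed means differed by 1.12 times (limit 1.1). A filter on the mean left out the lowest 40% of probe sets, and 64 array controls were removed, leaving 27022. Groups were compared with limma 3.58.1 in R 4.3.3 with arrayWeights and eBayes (trend, robust), two-sided, with Benjamini-Hochberg adjustment over the 27022 probe sets. The fit was tested on simulated data.

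Genes were named from the platform annotation by probe sets with 1 symbol (34958, against 932 with several and 9211 with none), and all 31 members matched RefSeq by Entrez ID. The well measured members were given array by array, other pathway genes by smallest p or by a fixed name. Members, gene lists and tests were chosen with earlier results of these data known. The design text says that 2 noisy controls were excluded and not which, so all 4 deposited controls were kept, with fits without controls 2 and 3 as an alternative. Replicates are separate pools, and each p value sets the difference between groups against the spread between pools, as weighted and moderated by limma. Nothing in the labels says that equal replicate numbers pair the pools.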

Additional observations from a re-analysis of the deposited data

Results flagged for a closer look

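Within groups of 4 arrays, a value was set apart where its gap to the nearest other array exceeded 0.829 of the group's range. Of 48 groups examined (24 well measured genes in 2 groups) 4 met this, and chance alone sets about 1 group in 20 apart. Sema4c in control 4 was 8.97, with the other controls between 9.64 and 9.66, and this array is the one that brought the groups within 0.1 of each other. Sema6d in control 3 was 10.72, against 10.97 to 11.01. Sema3f in control 3 was 4.77, against 6.61 to 6.82, near background. Plxna2 in mutant 2 was 8.78, against 8.4 to 8.44. Of the 3 control values, 2 came from control 3, whose background was raised.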

How the results depend on the processing

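Over all probe sets 7 were higher and 5 lower. These counts were 41 and 22 with the authors' scaling, 17322 and 1832 with median-centred arrays, 7 and 4 with a pseudocount of 1, 22 and 12 with 64, 14 and 12 without the filter, 13 and 10 with a filter on detection, 6 and 10 without weights, 2 and 2 with the 3' to 5' ratio as a covariate, and 1 and 1 without controls 2 and 3 in both fits. Leaving out single arrays gave 3 to 1417 higher and 2 to 371 lower, with 1417 and 263 without control 1, 1291 and 371 without control 4, 89 and 20 without control 3. Of the semaphorin, plexin and neuropilin genes 0 were higher and 0 lower. The authors' scaling gave 0 and 1, median-centred arrays 14 and 3, leave-one-out 0 to 2 and 0 to 3, and the other alternatives 0 and 0. Of the pathway genes 1 was higher and 0 lower. Median-centred arrays gave 43 and 3, leave-one-out 0 to 5 and 0 to 1, and the covariate and both fits without controls 2 and 3 gave 0 higher. The cause was not tested.

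Pairing by equal replicate numbers was not seen in the correlations: same-number correlations of deviations were -0.115, 0.006, -0.126 and 0.169, and 1 of 8 arrays correlated best with its own number. Such weak correlations do not show that the pools were unpaired. The replicate block gave 26 higher and 34 lower over all probe sets, 0 and 0 members, and 1 and 0 pathway genes.

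With the 3' to 5' ratio as a covariate, the sign turned for Sema3e (-0.15) and Dpysl2 (-0.011). With the authors' scaling, the sign turned for Plxna1 (-0.072), Plxnd1 (-0.075), Sema3d (-0.098), Sema3e (-0.53), Rac1 (0.12) and Rasa1 (0.048). With median-centred arrays, after subtracting the overall median, the sign turned for Plxna1 (-0.060), Plxna3 (-1.90), Sema3d (-0.033), Sema3e (-0.26), Sema4d (0.20), Sema6d (0.38), Pak2 (0.20), Rap1a (0.46), Rras2 (0.45), Furin (0.44), Itgb1 (0.42), Rac1 (0.71), Rhoa (0.48), Rasa1 (0.31), Dpysl3 (0.46) and Gata4 (0.29). With a filter on detection, the sign turned for Sema3e (-0.036) and Dpysl2 (-0.0003). Without array weights, the sign turned for Plxna2 (0.013), Plxnb2 (0.26), Sema3d (-0.11), Sema6b (0.34) and Rac1 (0.099). Without a filter on low values, the sign turned for Plxnb2 (0.11), Sema3d (-0.019), Sema6b (0.0040) and Rac1 (0.043). With the replicate block, the sign turned for Plxnb1 (0.055), Sema6b (0.098) and Rac1 (0.013). Without controls 2 and 3, unweighted, the sign turned for Plxna2 (0.018), Plxnb1 (0.30), Plxnd1 (-0.025), Sema3d (-0.078), Sema3e (-0.34), Met (-0.044) and Dpysl2 (-0.0052). Without controls 2 and 3, weighted, the sign turned for Plxnb1 (0.24), Sema3e (-0.24) and Dpysl2 (-0.0049). The authors' scaling had an overall median of -0.10, and after subtracting it Plxna1 (0.027), Plxnd1 (0.024) and Sema3d (0.0014) did not turn. When single arrays were left out, the sign turned for Dpysl2 (-0.014 to 0.037), Itgb1 (-0.26 to 0.092), Plxna1 (-0.0067 to 0.20), Plxna2 (-0.18 to 0.041), Plxna3 (-0.62 to 1.30), Plxnb1 (-0.74 to 0.023), Plxnb2 (-0.23 to 0.57), Rac1 (-0.054 to 0.18), Rasa1 (-0.16 to 0.0052), Sema3c (-0.29 to 0.16), Sema3d (-0.24 to 0.095), Sema3e (-0.18 to 0.50), Sema4d (-0.39 to 0.12) and Sema6b (-0.41 to 0.41). Dim probe sets near background limit what can be told of 7 of the 31 genes.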
